A study of Mus musculus with 30 samples.

Results

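The genes described here encode patterning transcription factors with a homeodomain, a paired domain or a POU domain, together with a few relatives that carry the same symbols. They were taken by symbol: every gene whose single platform symbol starts with Hoxa, Hoxb, Hoxc, Hoxd, Irx, Meis or Pbx, or with Pax, Lhx, Nkx, Pou or the letters of Six3 before a digit, leaving out Pax6, Lhx6, Nkx2-1 and Pbxip1. This gave 83 of the 12394 genes that the arrays measured under 1 symbol, through 109 probe sets, and each gene was read from its brightest probe set. RefSeq's list of mouse genes for the assembly GRCm38.p6 holds all 83 under the same symbols. The symbol rule also takes in Pou2af1, a coactivator of POU factors, and Hoxa11os, an antisense RNA.

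RNA came from primary cultures of mouse telencephalon, the most anterior vesicle of the neural tube and the source of cortex and striatum, dissected at embryonic day 12.5 (E12.5) and kept in serum-free Neurobasal medium with B27. Cells of 6 Xbp1 -/- embryos made the knockout (KO) pool and cells of 4 Xbp1 +/+ embryos the wild-type (WT) pool. The protein XBP1 switches on genes that relieve stress in the endoplasmic reticulum. Each pool was spread over 15 dishes, of which 5 had no BDNF (basal), 5 had 24 h and 5 had 48 h of BDNF, a neurotrophin acting through TrkB, at 100 ng/ml from day 3 in vitro. Basal and 24 h dishes were lysed on day 4 and 48 h dishes on day 5, so that at 48 h the BDNF and 1 more day of culture cannot be told apart. There was 1 pool per genotype, so genotype and pool cannot be told apart either, and the spread behind each p-value is that among dishes of the same pool, which may be technical. The Xbp1 probe set averaged 4.65 in basal knockout and 4.43 in basal wild-type dishes on the log2 scale used below, a difference of 0.22 ± 0.06 (adjusted p = 0.00498). Which exons the knockout allele lacks is not given in the sources used here, so this value does not check the genotype.

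HOX genes lie in clusters and set position along the hindbrain, spinal cord and trunk; they are known to be silent in the telencephalon. Iroquois genes (Irx) mark territories behind and beside the telencephalon, such as thalamus, midbrain and hindbrain. LIM homeobox genes (Lhx) divide the forebrain into areas and neuron classes, MEIS and PBX proteins are the homeodomain partners that many of these factors bind DNA with, and POU class III genes act in neural progenitors and young neurons.

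Signals are given below as log2 of the array signal over the median of the same array, so that 0 is the level of the median probe set, and values under 0.1 of the median stand at a floor of -3.32. A gene was tested if its mean over all 30 arrays was in the upper 60% of genes, which put the limit at -0.40. An array signal depends on its probes, so levels of different genes cannot be ranked against each other. Only 18 of the 83 genes passed, 21.7% against 60% of all genes.

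**Figure D1:**
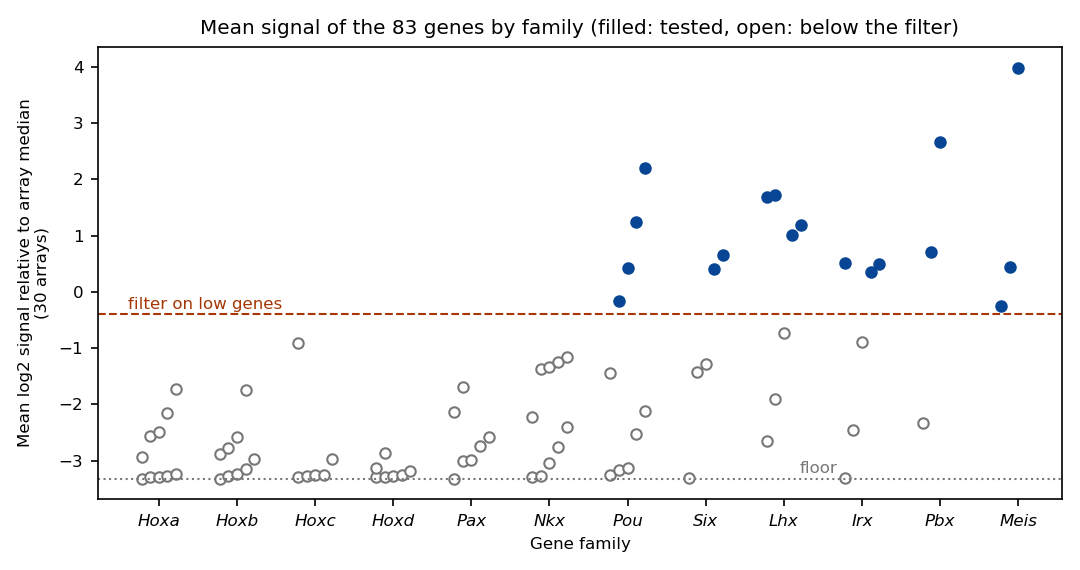
Mean log2 signal relative to the array median (vertical axis) of each of the 83 genes over 30 arrays, by family (horizontal axis); filled circles are the 18 tested genes, open circles the 65 below the limit of -0.40 (dashed), and the dotted line is the floor of -3.32. All 32 HOX, 10 Nkx and 7 Pax genes lie below the limit and all 3 Meis genes above it.

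None of the 32 HOX genes was tested. The 10 Hoxa genes were Hoxa2, Hoxa3, Hoxa4, Hoxa5, Hoxa7, Hoxa9, Hoxa10, Hoxa11, Hoxa11os and Hoxa13, with means between -3.32 and -1.72. The 9 Hoxb genes, Hoxb1, Hoxb2, Hoxb3, Hoxb4, Hoxb5, Hoxb6, Hoxb7, Hoxb9 and Hoxb13, had means between -3.32 and -1.74. Signals of the 6 Hoxc genes (Hoxc4, Hoxc5, Hoxc6, Hoxc8, Hoxc9 and Hoxc13) averaged between -3.29 and -0.91, and those of the 7 Hoxd genes (Hoxd1, Hoxd8, Hoxd9, Hoxd10, Hoxd11, Hoxd12 and Hoxd13) between -3.30 and -2.87. Of the 32, 19 stood at the floor on most arrays, and Hoxa7 and Hoxb13 did on all 30. Hoxc6, known from the trunk and limb, averaged -0.91 over all arrays. In basal dishes Hoxc6 read -0.11, -0.58, -0.14, -1.10 and -0.36 in the wild type and -0.64, -0.93, -1.20, -1.09 and -0.74 in the knockout. These ranges overlapped, and no HOX gene had a mean above the limit in any of the 6 groups.

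The other untested genes were all 10 Nkx genes (Nkx1-2, Nkx2-2, Nkx2-3, Nkx2-4, Nkx2-5, Nkx2-6, Nkx2-9, Nkx3-2, Nkx6-1 and Nkx6-2) and all 7 Pax genes (Pax1, Pax3, Pax4, Pax5, Pax7, Pax8 and Pax9). They also held Irx2, Irx4 and Irx6, Lhx3, Lhx4 and Lhx5, Pbx4, Six4, Six5 and Six6, and Pou2af1, Pou2f2, Pou2f3, Pou3f3, Pou4f3 and Pou5f1. Of these 33 genes, 11 were at the floor on most arrays. The 18 tested genes were Irx1, Irx3, Irx5, Lhx1, Lhx2, Lhx8, Lhx9, Meis1, Meis2, Meis3, Pbx2, Pbx3, Pou3f1, Pou3f2, Pou3f4, Pou6f1, Six2 and Six3.

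The first question was how the 2 genotypes differed in these genes. In the knockout cultures the Iroquois genes Irx1, Irx3 and Irx5 and the LIM genes Lhx1 and Lhx9 were each at least 2.03-fold higher at every time, Pou3f4 and Pbx3 were higher by less, and Lhx2 and Meis2 were lower. In basal dishes 8 of the 18 tested genes were higher in the knockout (44.4% against 9.2% of all 7436 genes tested) and 2 lower (11.1% against 18.7%). At 24 h of BDNF the counts were 8 higher (all genes 8.43%) and 3 lower (17.8%), and at 48 h again 8 higher (9.68%) and 3 lower (14.4%). Among all called genes, 33%, 32.2% and 40.2% were higher in the knockout at the 3 times, and this split was 46.7%, 51.4% and 53.2% after quantile normalization, 46.3%, 47.4% and 49.8% with 75th percentile scaling and 73.4%, 83.4% and 65.4% without rescaling. Among the 18 genes these scalings gave 7 to 9 higher and 2 or 3 lower. The median difference of the 18 genes was 0.27, 0.17 and 0.21 at the 3 times, against -0.09, -0.09 and -0.07 over all genes tested. Of the 18 genes, 8, 10 and 10 had dishes whose ranges did not overlap between genotypes, and all of these were called; over all genes tested the dishes did not overlap for 18.9%, 17.7% and 16.7%. A gene can pass the limit through the genotype in which it is high, so these counts describe the 18 genes and not the 83.

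**Figure D2:**
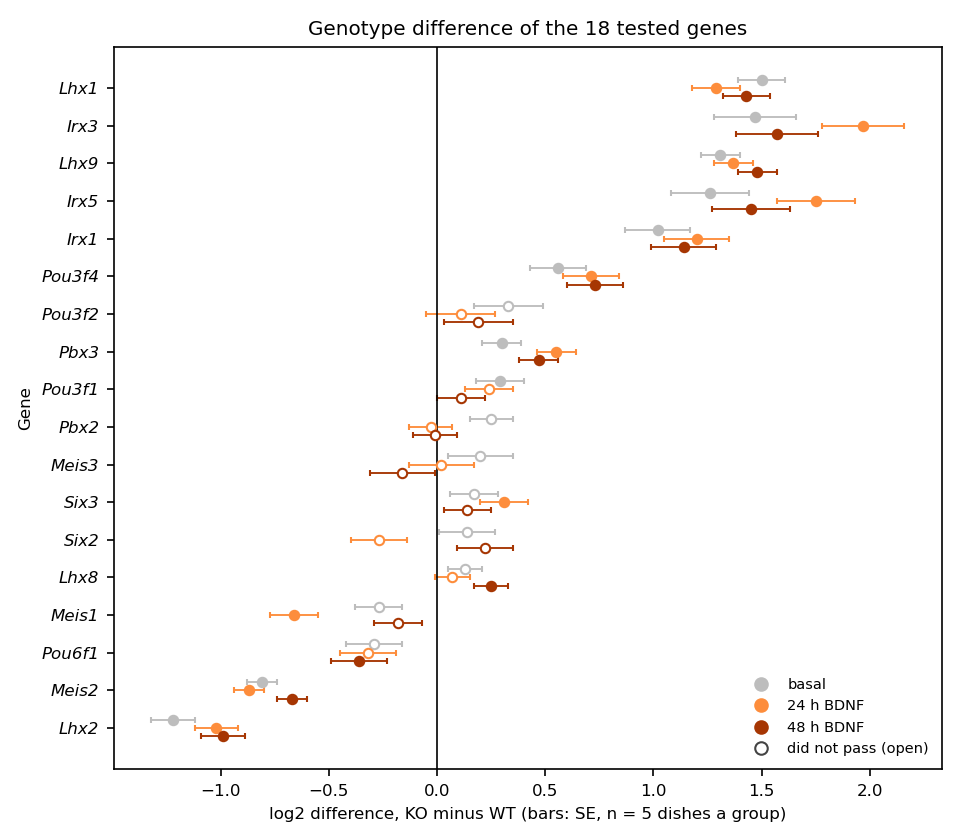
Log2 difference, knockout minus wild type, of the 18 tested genes in basal dishes (grey), at 24 h (orange) and at 48 h of BDNF (brown), with bars for the SE of the fit (5 dishes a group) and filled circles for adjusted p under 0.05. Lhx1, Lhx9, Irx1, Irx3 and Irx5 lie between 1.02 and 1.97 at all times, and Lhx2 and Meis2 between -1.22 and -0.67.

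All 3 tested Iroquois genes were higher in the knockout. Irx3, a homeodomain factor of the caudal forebrain and the ventral spinal cord, read 0.13, -0.17, 0.35, -0.33 and -0.13 in basal wild-type dishes and 1.46, 1.56, 1.40, 1.09 and 1.67 in basal knockout dishes. With 24 h of BDNF it read -0.40, -0.21, -0.42, -0.13 and -1.44 in the wild type and 1.26, 1.39, 1.39, 1.51 and 1.70 in the knockout, and with 48 h -0.83, -0.29, 0.37, -0.51 and -0.64 and 0.86, 1.10, 1.28, 1.30 and 1.39. Every knockout dish was above every wild-type dish at each time. The differences were 1.47 ± 0.19 (adjusted p = 3.05e-07), 1.97 ± 0.19 (adjusted p = 9.2e-10) and 1.57 ± 0.19 (adjusted p = 8.16e-08), or 2.76-fold, 3.91-fold and 2.97-fold. In the 24 h wild-type group, replicate 5 stood apart at -1.44, and without it the difference was 1.74.

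Irx5, which lies next to Irx3 with no other protein-coding gene between them in the RefSeq assembly GRCm38.p6, read 0.59, 0.21, 0.11, -0.38 and -0.23 in basal wild-type dishes and 1.47, 1.40, 1.17, 1.10 and 1.45 in the knockout. The ranges did not overlap there or at either BDNF time. Irx5 was higher by 1.26 ± 0.18 (adjusted p = 1.67e-06), 1.75 ± 0.18 (adjusted p = 3.21e-09) and 1.45 ± 0.18 (adjusted p = 1.11e-07) at the 3 times. Irx1 lies in the other Iroquois cluster beside Irx2 and Irx4. Its basal signals were 0.34, -0.15, 0.12, -0.39 and 0.17 in the wild type and 1.01, 0.87, 1.26, 0.80 and 1.27 in the knockout, and it was higher by 1.02 ± 0.15 (adjusted p = 2.69e-06), 1.20 ± 0.15 (adjusted p = 1.67e-07) and 1.14 ± 0.15 (adjusted p = 3.56e-07).

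Irx2, with a mean of -0.90 over all arrays, was below the limit. Its basal wild-type dishes read -3.31, -3.32, -2.24, -1.94 and -1.32, and its basal knockout dishes 0.34, 0.43, 0.40, 0.16 and 0.25. All 15 knockout dishes lay between 0.08 and 0.55 and all 15 wild-type dishes between -3.32 and -1.24. In a fit with no filter on low genes, which was an alternative setting, Irx2 differed by 2.74, 2.69 and 1.82 in basal, 24 h and 48 h dishes (limma, adjusted p = 1.14e-07, 1.93e-07 and 5.75e-05). So 4 of the 6 Iroquois genes read higher in the knockout, while Irx4 was at the floor on 28 of 30 arrays and Irx6 averaged between -2.63 and -2.27 in the 6 groups.

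**Figure D3:**
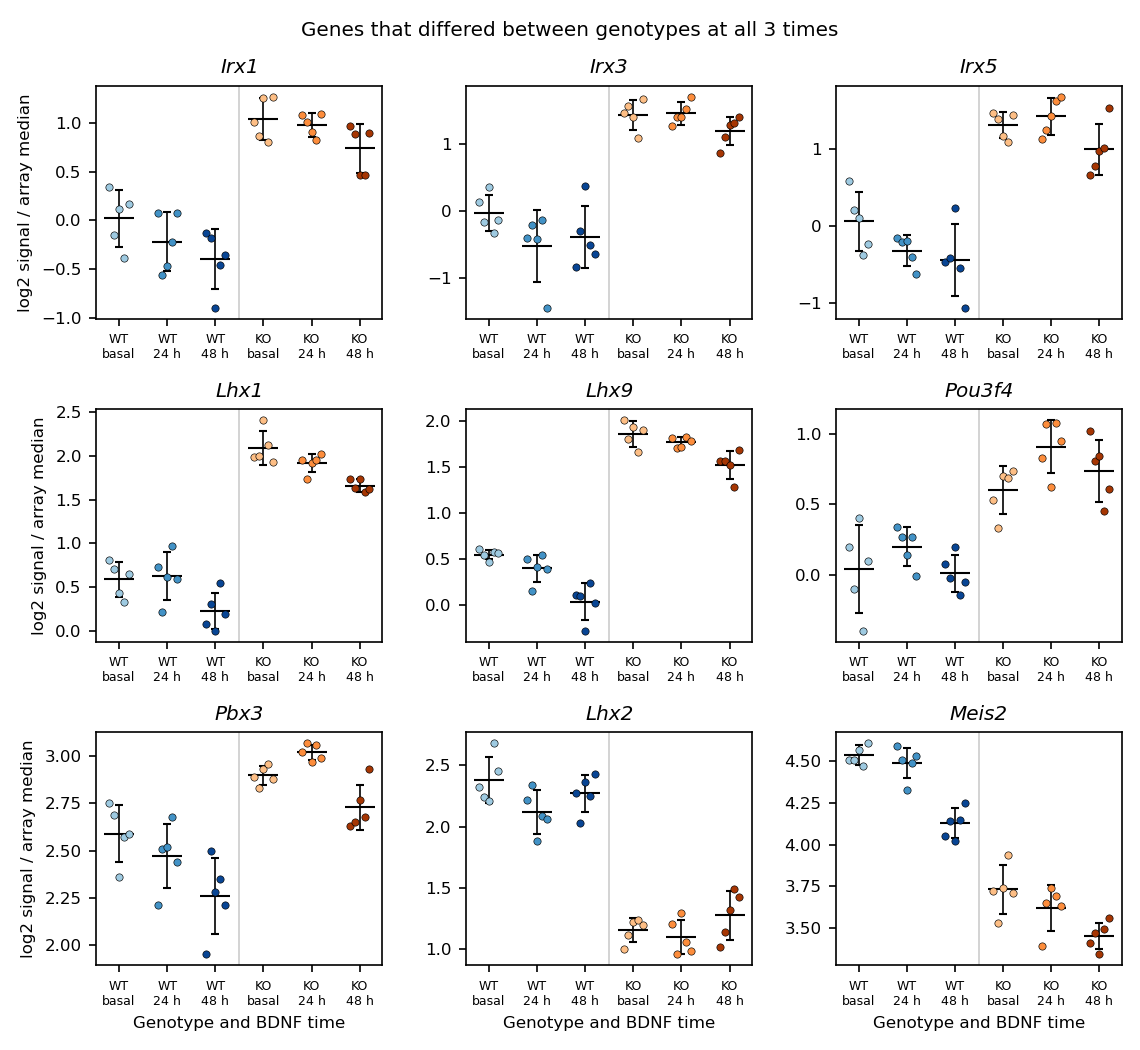
Log2 signal relative to the array median (vertical axes) in each dish (points) of the 6 groups (horizontal axes), with the mean and SD over 5 dishes in black, for the 9 genes that differed between genotypes at all 3 times. The first 7 panels stand higher in the knockout, with Irx3 between 0.86 and 1.70 there against -1.44 to 0.37 in the wild type, and the Lhx2 and Meis2 panels stand lower.

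Among the LIM genes, Lhx1 is known from early-born cortical neurons and from the diencephalon, and Lhx9 from thalamic and pioneer neurons. Lhx1 read 0.81, 0.71, 0.44, 0.33 and 0.65 in basal wild-type dishes and 1.99, 2.00, 2.41, 2.12 and 1.93 in the knockout. Lhx9 read 0.61, 0.54, 0.47, 0.58 and 0.57 and 2.01, 1.80, 1.93, 1.66 and 1.90 in the same groups. Neither gene's dishes overlapped between genotypes at any time. Lhx1 was higher by 1.5 ± 0.11 (adjusted p = 2.08e-12), 1.29 ± 0.11 (adjusted p = 8.84e-11) and 1.43 ± 0.11 (adjusted p = 5.65e-12), and Lhx9 by 1.31 ± 0.09 (adjusted p = 2.11e-13), 1.37 ± 0.09 (adjusted p = 1.26e-13) and 1.48 ± 0.09 (adjusted p = 9.3e-15). The second probe set of Lhx1 gave similar values, 1.34, 1.40 and 1.25, and that of Lhx9, with a mean of -2.04, gave 0.73, 0.97 and 0.68.

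Lhx2, a selector of cortical identity that keeps the cortical primordium from becoming hem, moved the other way. Its basal signals were 2.32, 2.24, 2.21, 2.68 and 2.45 in the wild type and 1.0, 1.12, 1.22, 1.24 and 1.20 in the knockout, with no overlap. It was lower, at -1.22 ± 0.10 (adjusted p = 1.2e-11), -1.02 ± 0.10 (adjusted p = 1.18e-09) and -0.99 ± 0.10 (adjusted p = 1.49e-09) at the 3 times, 2.34-fold in basal dishes. Lhx8, which specifies cholinergic neurons of the basal forebrain, had a basal difference of 0.13 ± 0.08 (adjusted p = 0.249) and was higher in the knockout only in the comparison at 48 h, by 0.25 ± 0.08 (adjusted p = 0.0232). That call was lost without WT 48 h replicate 1 or 2 or KO 48 h replicate 3, where the differences ranged from 0.20 to 0.30 over all arrays left out. Lhx5, the close relative of Lhx1, was below the limit, with -1.63, -0.78, -1.12, -1.30 and -1.69 in wild-type and -0.14, -0.38, -0.48, -0.92 and -0.31 in knockout dishes at 48 h, and in the fit with no filter it differed there by 0.86 (adjusted p = 0.00622).

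Among the MEIS and PBX partners, Meis2, which is abundant in the striatal primordium, read 4.51, 4.51, 4.57, 4.47 and 4.61 in basal wild-type dishes and 3.72, 3.53, 3.74, 3.94 and 3.71 in the knockout, and its groups did not overlap at any time. Meis2 was lower, at -0.81 ± 0.07 (adjusted p = 2.29e-11), -0.87 ± 0.07 (adjusted p = 5.04e-12) and -0.67 ± 0.07 (adjusted p = 1.51e-09). Meis1 was lower only in the comparison at 24 h, at -0.66 ± 0.11 (adjusted p = 3.89e-05), where the wild type read 0.60, 0.71, 0.91, 0.86 and 0.69 and the knockout 0.03, -0.07, 0.27, -0.10 and 0.35. Its differences were -0.27 in basal dishes and -0.18 at 48 h (adjusted p = 0.0804 and 0.255). From basal to 24 h the genotype difference changed by -0.39 ± 0.16 (adjusted p = 0.676), short of the threshold. Pbx3 moved opposite to Meis2, with 2.75, 2.69, 2.36, 2.57 and 2.59 in basal wild-type dishes and 2.89, 2.83, 2.93, 2.96 and 2.88 in the knockout. These ranges did not overlap, and Pbx3 was higher by 0.30 ± 0.09 (adjusted p = 0.00755), 0.55 ± 0.09 (adjusted p = 6.34e-06) and 0.47 ± 0.09 (adjusted p = 6.4e-05). Meis3 and Pbx2 passed at no time, with differences of -0.16 to 0.20 and of -0.03 to 0.25.

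Of the POU genes, Pou3f4 (Brn-4), known from the striatal primordium, read 0.20, -0.10, 0.40, -0.40 and 0.10 in basal wild-type dishes and 0.53, 0.33, 0.70, 0.69 and 0.74 in the knockout. In basal dishes 1 knockout value, 0.33, lay below the highest wild-type value, 0.40, and at 24 h and 48 h the ranges did not overlap. Pou3f4 was higher by 0.56 ± 0.13 (adjusted p = 0.00109), 0.71 ± 0.13 (adjusted p = 5.8e-05) and 0.73 ± 0.13 (adjusted p = 3.48e-05), and its second probe set differed by 0.43, 0.42 and 0.33. Pou3f1 (Oct-6) was higher in basal knockout dishes by 0.29 ± 0.11 (adjusted p = 0.0491). The call was lost when any 1 of 8 arrays was left out (KO basal replicates 2 to 5 or WT basal replicates 2 to 5), with differences between 0.22 and 0.37. Pou6f1 (Brn-5) was lower in the knockout at 48 h, at -0.36 ± 0.13 (adjusted p = 0.0496), a call lost without any 1 of 7 arrays (WT 48 h replicates 2 to 5 or KO 48 h replicates 1 to 3), with differences from -0.41 to -0.25. Pou3f2 (Brn-2) passed at no time (0.33, 0.11 and 0.19). Of the sine oculis homologs, Six3, needed to form the anterior forebrain, was higher in the knockout at 24 h by 0.31 ± 0.11 (adjusted p = 0.0349), and this call was lost without any 1 of 6 arrays (KO 24 h replicates 1, 3 or 4 or WT 24 h replicates 1 to 3), with differences from 0.27 to 0.36. Six2, known from head mesenchyme and kidney progenitors, passed at no time (0.14, -0.27 and 0.22).

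3 further genes below the limit read higher in the knockout at all 3 times in the fit with no filter. Pax3, a dorsal neural tube and neural crest factor, read -1.71, -2.67, -3.32, -3.07 and -3.32 in basal wild-type dishes and -1.0, -1.08, -1.60, -1.41 and -1.31 in the knockout, and at 48 h all 5 wild-type dishes were at the floor. Its differences there were 1.54, 0.84 and 1.54 (adjusted p = 0.000355, 0.0494 and 0.000364), and the sizes depend on the floor, at which 2 of 5 wild-type dishes stood in basal dishes and 1 of 5 at 24 h. Nkx2-2, a factor of the ventral tube next to the floor plate and of the zona limitans, read -1.47, -1.70, -2.36, -1.88 and -2.04 and -0.63, -0.83, -0.54, -0.80 and -1.24 in basal dishes and differed by 1.08, 0.61 and 0.92 (adjusted p = 3.01e-05, 0.0139 and 0.000267). The third gene was Nkx1-2, with 1.36, 0.90 and 0.62 (adjusted p = 1.54e-05, 0.0024 and 0.0404). The fit with no filter also put 2 HOX genes lower in the knockout at 24 h, Hoxb1 at -0.69 (adjusted p = 0.00431) with group means of -3.08 and -2.39, and Hoxa9 at -1.92 (adjusted p = 0.0422) with -2.58 and -0.66. The share of all 12394 genes called in that fit is not given here. Its calls are therefore read gene by gene and not as a result about the 65 genes below the limit.

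**Figure D4:**
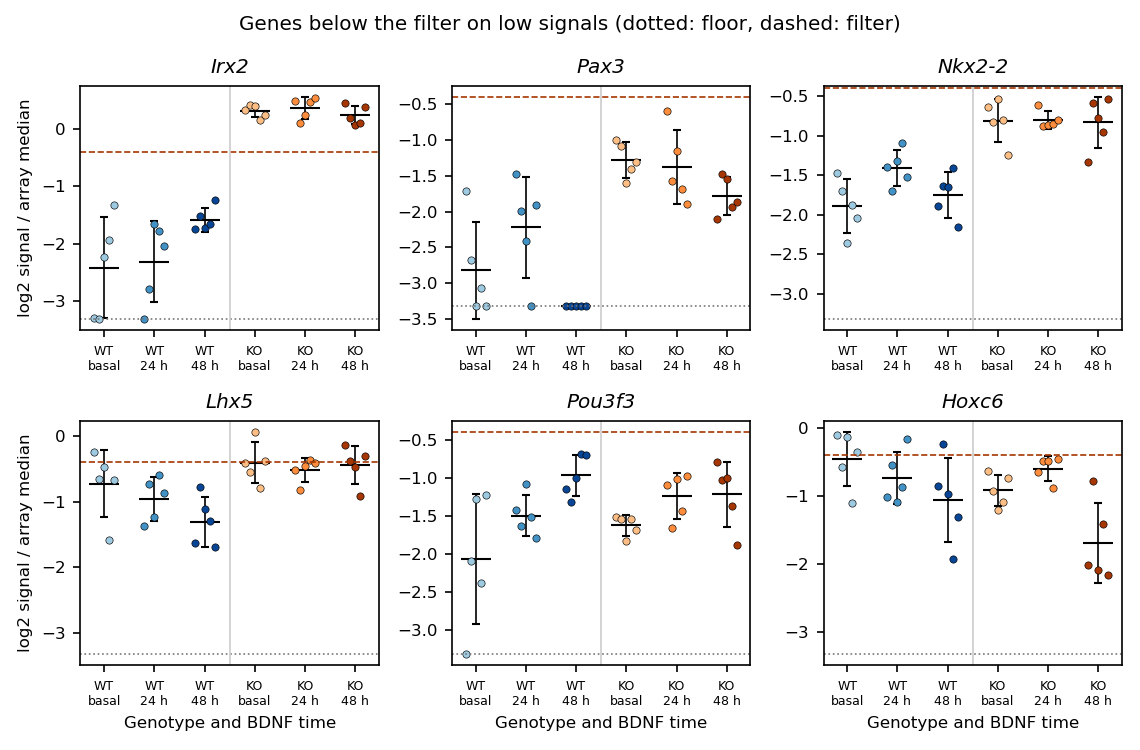
Log2 signal relative to the array median (vertical axes) in each dish (points; black, mean and SD over 5 dishes) of the 6 groups (horizontal axes) for 6 genes below the limit; the dashed line is the limit of -0.40 and the dotted line the floor of -3.32. All knockout dishes of Irx2 lie between 0.08 and 0.55 and all wild-type dishes at -1.24 or lower, and the Pax3 dishes of the wild type at 48 h are all at the floor.

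The promoters of genes that moved together are shown so that a reader can compare them with the expression values. Of the 9 genes called in 1 direction at all 3 times, 6 have a promoter in the RefSeq table for GRCm38.p6 (Irx3, Lhx1, Lhx2, Lhx9, Meis2 and Pou3f4; 7 promoters in all), each running from 250 bases before to 50 after a transcript start on the gene's own strand. The letters searched on both strands were TAATTA, a core that many homeodomain proteins bind, TGACAG, the letters read by MEIS and TGIF proteins, and ACGTG, which lies within elements bound by XBP1. They occur in 5.29%, 19.2% and 19.6% of all 32851 promoters of this length. Shown are Irx3, Lhx1 and Lhx9, which were higher in the knockout, and Lhx2, which was lower. Of the tested genes Irx3 differed most at 24 h and 48 h of BDNF, and Lhx1 in basal dishes. Capitals mark a match. The promoters shown lie at chr8:91801605-91801904 (minus strand), chr11:84525485-84525784 (minus strand), chr1:138842395-138842694 (minus strand) and chr2:38351058-38351357 (plus strand).
Irx3: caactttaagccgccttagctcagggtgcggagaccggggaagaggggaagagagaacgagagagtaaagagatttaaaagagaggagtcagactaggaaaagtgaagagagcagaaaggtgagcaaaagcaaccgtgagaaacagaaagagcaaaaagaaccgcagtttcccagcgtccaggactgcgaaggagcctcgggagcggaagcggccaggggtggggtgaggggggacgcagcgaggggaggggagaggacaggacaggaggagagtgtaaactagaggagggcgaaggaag
Lhx1: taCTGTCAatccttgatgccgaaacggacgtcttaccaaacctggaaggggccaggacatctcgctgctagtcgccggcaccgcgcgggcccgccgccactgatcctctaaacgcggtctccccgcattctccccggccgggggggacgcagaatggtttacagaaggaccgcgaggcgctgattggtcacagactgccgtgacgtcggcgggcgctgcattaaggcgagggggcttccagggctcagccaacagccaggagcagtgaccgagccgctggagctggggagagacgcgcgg
Lhx9: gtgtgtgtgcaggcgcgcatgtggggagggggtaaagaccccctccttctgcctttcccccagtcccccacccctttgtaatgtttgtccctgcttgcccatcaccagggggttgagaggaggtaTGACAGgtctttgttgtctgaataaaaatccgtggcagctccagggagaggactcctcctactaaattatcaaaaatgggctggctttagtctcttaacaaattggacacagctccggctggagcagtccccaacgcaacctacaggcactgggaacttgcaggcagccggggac
Lhx2: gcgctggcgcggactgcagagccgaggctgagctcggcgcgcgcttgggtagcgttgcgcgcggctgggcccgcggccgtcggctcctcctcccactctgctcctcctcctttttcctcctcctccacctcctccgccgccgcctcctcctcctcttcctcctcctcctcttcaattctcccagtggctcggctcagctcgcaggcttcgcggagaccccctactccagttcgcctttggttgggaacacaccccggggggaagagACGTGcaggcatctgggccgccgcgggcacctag
Counting bases from the transcript start, Lhx1 held TGACAG at -248, on the opposite strand so that it is printed as CTGTCA, and Lhx9 held it at -125. The Lhx2 promoter shown held ACGTG at position 17, and the other Lhx2 promoter, like those of Irx3, Meis2 and Pou3f4, held none of the 3. So TAATTA was found in 0 of the 7 promoters, TGACAG in 2 and ACGTG in 1, and the matches did not overlap one another.

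Beside these differences, markers of brain regions and other cell types also differed between the pools. Of a list of telencephalic genes, 7 of 10 were on the array under 1 symbol and 6 were tested, and all 6 were lower in the knockout at each time (medians -0.90, -0.99 and -0.81), among them Neurod6 of cortical neurons (-1.38 ± 0.11, adjusted p = 2.75e-12) and Bcl11b of deep-layer and striatal neurons (-1.11 ± 0.12, adjusted p = 3.34e-09). Signals of the 7 genes on the array were also summed, in units of the array median. These sums were 25.9 to 31.1 in basal wild-type and 13.9 to 15.8 in basal knockout dishes. The sums given for the other lists likewise take in all their genes on the array, tested or not. Of the midbrain and floor plate list, 3 of 10 were tested and 2 were higher in basal dishes, with the floor plate factor Foxa1 at 2.52 ± 0.22 (adjusted p = 3.37e-11), while En1 and Corin were at the floor. The wild-type means of Foxa1, -0.49, -0.86 and -0.65 at the 3 times, lay below the limit of -0.40, so it was tested through its knockout signals. At 24 h of BDNF 1 gene of that list was higher and 0 lower, and at 48 h 1 was higher and 1 lower. The sum of that list was 3.38 to 4.36 against 8.08 to 11.4. Tcf7l2, a thalamic factor, was higher by 1.40 ± 0.12 (adjusted p = 1.4e-11), while Mitf of the eye's pigment layer was lower (-0.66 ± 0.15, adjusted p = 0.000847), and these were 2 of the 3 tested genes for diencephalon, eye and pituitary (sums 6.26 to 8.44 against 9.49 to 14.4). None of the hindbrain and spinal cord list passed the limit (8 of 10 measured, Mnx1 and Olig3 at the floor).

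Mesenchymal genes were higher in the knockout in 7 of 7 tested (medians 0.96, 0.90 and 1.08), such as Lum (1.99 ± 0.15, adjusted p = 2.71e-12) and Dcn (1.41 ± 0.19, adjusted p = 6.75e-07), and their sums were 101 to 123 in basal wild-type and 205 to 245 in basal knockout dishes, with no marker at the floor. Of 3 tested vascular genes 2 were higher and 1 lower in basal dishes (sums 51.3 to 56.3 against 63.4 to 79.7, Pecam1 and Cdh5 at the floor). Of 9 tested neuron genes, 0 were higher and 2 lower in basal dishes (sums 210 to 238 against 196 to 219), and of 11 progenitor genes 2 were higher and 6 lower (168 to 211 against 159 to 181). Microglial genes gave 1 higher and 0 lower of 5, erythroid genes 0 of 3 either way, and no muscle gene was tested. The vascular counts were the same at 24 h and 48 h. Neuron genes gave 0 higher and 2 lower at 24 h and 0 and 5 at 48 h, and progenitor genes 2 higher and 5 lower at 24 h and 3 and 2 at 48 h. Microglial genes gave 2 higher and 1 lower at 24 h and 3 and 1 at 48 h, and erythroid genes 2 and 0 at 24 h and 1 and 0 at 48 h. Whether the mix of cells or regions in the pools plays a part in the differences of Irx, Lhx, Meis and the other genes was not tested, and in such bulk RNA fewer cells of a type and less RNA per cell cannot be told apart.

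Other genes that work in the same tissue or with these families were read from lists. Of 37 forebrain transcription factors, 17 were tested, and 2 were higher and 11 lower in basal knockout dishes (2 and 10 at 24 h and at 48 h). The 2 higher ones were Otx2, a forebrain and midbrain factor (0.74 ± 0.12, adjusted p = 9e-06), and Zic1, a factor of the dorsal midline and meninges (0.66 ± 0.11, adjusted p = 9.98e-06). These 2 were named after their values were seen. The interneuron genes Lhx6 (-0.95 ± 0.08, adjusted p = 1.55e-11), Dlx2 (-0.91 ± 0.18, adjusted p = 0.000182) and Dlx5 (-0.88 ± 0.17, adjusted p = 0.000116) were lower. The lists overlap: 4 of the 6 tested telencephalic genes, Bcl11b, Dlx1, Dlx2 and Dlx5, stand in the forebrain list too. LIM proteins work with LDB adaptors and are countered by LMO proteins: of 7 tested genes of that group 0 were higher and 2 lower in basal dishes, with Lmo4 at -0.25 ± 0.08 (adjusted p = 0.0245) and Ssbp2 at -0.20 ± 0.07 (adjusted p = 0.0267). Of the EYA and DACH partners of Six2 and Six3, 2 of 6 were tested, and Dach2 was lower in basal dishes (-0.36 ± 0.08, adjusted p = 0.000478).

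The second question was what BDNF changed in these genes. At 24 h almost nothing passed. In the wild type 0 of the 18 genes were higher (8.04% of all tested) and 1 lower (6.4%), and in the knockout 0 were higher (5.96%) and 0 lower (5.55%), where limma gave an unadjusted p under 0.05 for 2. The gene that fell in the wild type was Six3, which read 0.68, 0.62, 0.56, 0.48 and 0.57 in basal dishes and 0.05, 0.06, 0.21, 0.38 and 0.33 at 24 h. These dishes did not overlap, and the change was -0.38 ± 0.11 (adjusted p = 0.0162). In the knockout the Six3 difference was -0.24 ± 0.11 (adjusted p = 0.156). The wild-type count became 2 without WT basal replicate 3 or without WT 24 h replicate 2.

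At 48 h, with the added day in culture, most changes of these genes were falls. In the wild type 9 of the 18 fell, 50% against 15.7% of all genes tested, and 1 rose, 5.56% against 20.5%. In the knockout 6 fell (33.3% against 9.47%) and 0 rose (all genes 19.4%). The median difference of the 18 genes was -0.34 in wild-type and -0.28 in knockout dishes, and over all genes tested it was 0.02 and 0.04. Lhx1, Lhx8, Lhx9, Meis2 and Six3 fell in both genotypes, Irx1, Irx5, Pbx3 and Six2 in the wild type, and Pou3f1 in the knockout. The sizes were modest, at most 1.43-fold.

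**Figure D5:**
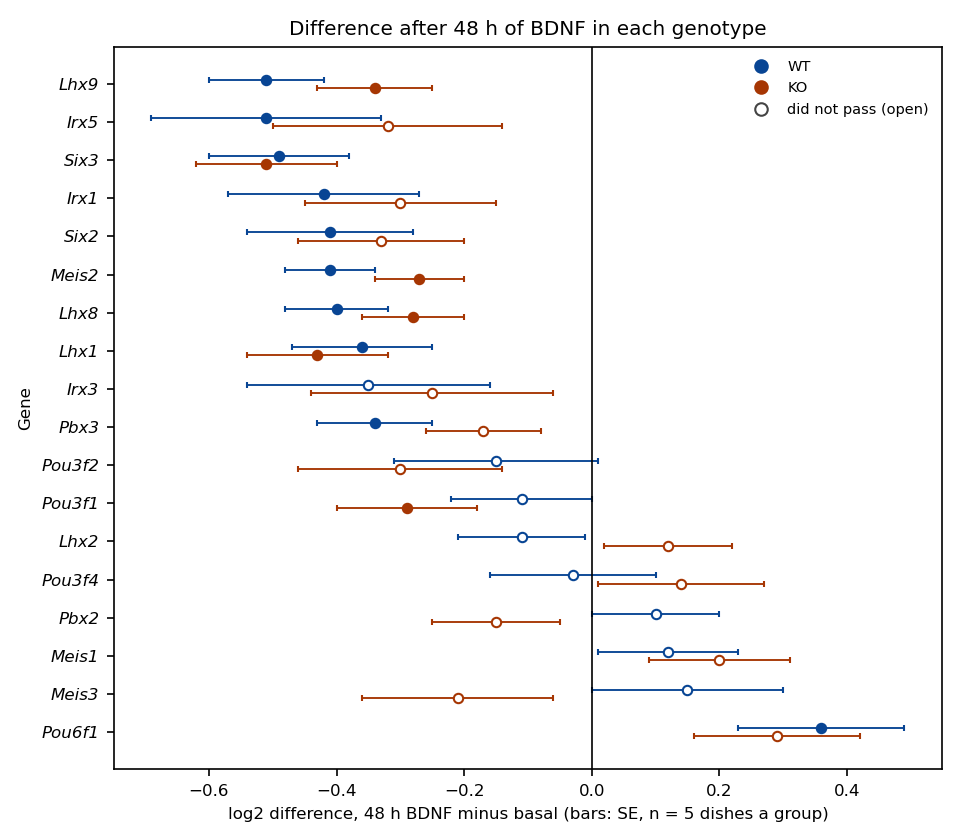
Log2 difference, 48 h of BDNF minus basal, of the 18 tested genes in wild-type (blue) and knockout (brown) dishes, with bars for the SE of the fit (5 dishes a group) and filled circles for adjusted p under 0.05. Most genes lie left of 0 in both genotypes, 14 of 18 in each. Of all genes tested, 46.5% in the wild type and 42.4% in the knockout were below 0. Lhx9 lies at -0.51 and -0.34 and Six3 at -0.49 and -0.51, and Pou6f1 lies to the right at 0.36 and 0.29.

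Among the LIM genes, Lhx9 went from 0.61, 0.54, 0.47, 0.58 and 0.57 in basal wild-type dishes to 0.11, 0.10, -0.28, 0.24 and 0.03 at 48 h, a change of -0.51 ± 0.09 (adjusted p = 5.47e-05), and in the knockout from 2.01, 1.80, 1.93, 1.66 and 1.90 to 1.56, 1.56, 1.52, 1.28 and 1.68, a change of -0.34 ± 0.09 (adjusted p = 0.00523). The wild-type groups did not overlap; 1 knockout dish at 48 h, at 1.68, lay above the lowest basal dish, at 1.66. Lhx8 read 1.16, 1.20, 1.39, 1.51 and 1.54 in wild-type and 1.59, 1.60, 1.68, 1.59 and 1.60 in knockout dishes at 48 h against basal values of 1.58, 1.91, 1.90, 1.67 and 1.77 and 1.88, 1.86, 1.80, 1.83 and 2.10. Neither pair of groups overlapped, and the changes were -0.40 ± 0.08 (adjusted p = 0.000286) and -0.28 ± 0.08 (adjusted p = 0.0102). Lhx1 fell in the wild type (-0.36 ± 0.11, adjusted p = 0.0148) and in the knockout (-0.43 ± 0.11, adjusted p = 0.0052); the wild-type call was lost without WT 48 h replicate 3 or WT basal replicate 1, where the differences ranged from -0.44 to -0.30 over all arrays left out. The second probe set of Lhx1 gave -0.23 in the wild type and -0.32 in the knockout. That of Lhx9, with a mean below the limit, gave -0.12 and -0.18, and both Lhx9 calls were lost with the mean of probe sets. Lhx2 did not pass in either genotype (-0.11 and 0.12). Of the LIM partners, 3 of 7 fell in both genotypes, the adaptor Ldb2 at -0.95 ± 0.10 (adjusted p = 1.54e-08) and -0.44 ± 0.10 (adjusted p = 0.00187) and the LDB-binding genes Ssbp2 (-0.64 and -0.37) and Ssbp3 (-0.48 and -0.41).

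Meis2 read 4.05, 4.14, 4.02, 4.15 and 4.25 in wild-type dishes at 48 h, all below the 5 basal dishes, and fell (-0.41 ± 0.07, adjusted p = 2.32e-05); in the knockout it read 3.41, 3.47, 3.34, 3.49 and 3.56 and fell (-0.27 ± 0.07, adjusted p = 0.00319), with overlapping dishes. Six3 read 0.11, 0.14, -0.03, 0.34 and -0.09 at 48 h in the wild type and 0.53, 0.41, 0.15, 0.01 and 0.09 in the knockout, below all basal dishes of the same genotype, and fell in the wild type (-0.49 ± 0.11, adjusted p = 0.000732) and in the knockout (-0.51 ± 0.11, adjusted p = 0.00061). All Six3 results rest on its brightest probe set. Its other probe sets were at the floor on 30 and on 22 of the 30 arrays, and the latter gave 0.12 and 0.19 at 48 h. With the mean of probe sets Six3 was not tested. Six2 fell in the wild type (-0.41 ± 0.13, adjusted p = 0.0147), a call lost without WT 48 h replicate 3 or WT basal replicate 2 (differences from -0.51 to -0.30), and differed by -0.33 ± 0.13 (adjusted p = 0.0584) in the knockout. Pbx3 fell in the wild type (-0.34 ± 0.09, adjusted p = 0.00267) and differed by -0.17 in the knockout.

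Of the Iroquois genes, Irx1 (-0.42 ± 0.15, adjusted p = 0.0292) and Irx5 (-0.51 ± 0.18, adjusted p = 0.0274) fell in the wild type. The Irx1 call was lost without any 1 of 5 arrays (WT 48 h replicates 3 or 4 or WT basal replicates 1, 3 or 5; differences from -0.52 to -0.30) and the Irx5 call without any 1 of 4 (WT 48 h replicates 4 or 5 or WT basal replicates 1 or 2; -0.69 to -0.36). In the knockout Irx1, Irx3 and Irx5 differed by -0.30, -0.25 and -0.32 and none passed. Pou6f1 was the only gene of the 18 to rise in the wild type at 48 h, from 2.05, 1.98, 2.26, 2.43 and 2.19 to 2.33, 2.46, 2.57, 2.79 and 2.56, or 0.36 ± 0.13 (adjusted p = 0.0342). Its dishes overlapped, and the call was lost without any 1 of 6 arrays (WT 48 h replicates 3 to 5 or WT basal replicates 1, 2 or 5; 0.30 to 0.42). The second probe set of Pou6f1 was at the floor on all 30 arrays. With the mean of probe sets this call and the genotype call of Pou6f1 at 48 h were both lost. Pou3f1 fell in the knockout (-0.29 ± 0.11, adjusted p = 0.0475), with no overlap, but the call was lost without any 1 of 9 arrays, all but KO 48 h replicate 3 (-0.32 to -0.23), and its second probe set, which gave -0.30 here, read opposite to the first in the wild type (0.24 against -0.11).

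Below the limit, the fit with no filter put Irx2 (0.85) and Pou3f3 (1.09) higher and Pax8 (-1.21), Lhx4 (-1.08), Hoxa3 (-0.84), Hoxb7 (-0.71) and Hoxb1 (-0.58) lower in the wild type at 48 h, and Nkx1-2 (-1.04) and Hoxc6 (-0.77) lower in the knockout. That fit also put Hoxc9 (-0.94) lower in the wild type at 24 h. Between 24 h and 48 h it put Hoxa3 (-1.26), Pax8 (-1.16), Pax3 (-1.10), Hoxb7 (-0.99), Hoxb1 (-0.91) and Nkx2-5 (-0.57) lower in the wild type. In the knockout Hoxc6 (-1.10), Hoxb7 (-0.89) and Nkx1-2 (-0.75) were lower between these times. Every one of these group means was below the limit. Some lay near the floor, such as Hoxb1 at -3.30 and Hoxa3 at -3.09 in the wild type at 48 h, so these sizes depend on it.

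Between 24 h and 48 h of BDNF, 5 of the 18 genes fell in the wild type (27.8% against 5.58%) and 0 rose (all genes 8.32%). They were Six2 (-0.59 ± 0.13, adjusted p = 0.00297), Lhx1 (-0.40 ± 0.11, adjusted p = 0.0185), Lhx9 (-0.36 ± 0.09, adjusted p = 0.00778), Meis2 (-0.36 ± 0.07, adjusted p = 0.000844) and Lhx8 (-0.34 ± 0.08, adjusted p = 0.00625). Six2 read 0.88, 0.75, 0.84, 1.06 and 0.96 at 24 h and 0.44, 0.65, -0.11, 0.27 and 0.27 at 48 h, without overlap. The Lhx1 call was lost without WT 48 h replicate 3 or WT 24 h replicate 4 (-0.50 to -0.31). The second probe set of Lhx1 gave -0.06 and that of Lhx9 0.02, and both calls were lost with the mean of probe sets. In the knockout 1 gene rose (5.56% against 7.49%), Meis1 by 0.36 ± 0.11 (adjusted p = 0.0403), and 1 fell (5.56% against 2.35%), Pbx3 at -0.29 ± 0.09 (adjusted p = 0.0278). Each of these calls was lost without any 1 of 7 arrays (KO 24 h replicates 1, 2 or 4 for both, KO 48 h replicates 1, 2, 3 or 5 for Meis1 and 1 to 4 for Pbx3; 0.31 to 0.42 and -0.34 to -0.27).

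The 48 h counts depended on how arrays were scaled. Without rescaling the median of all genes tested shifted by 0.34 in the wild type and 0.29 in the knockout between basal and 48 h, and none of the 18 genes was called lower and 4 were called higher in each genotype (Meis1, Meis3, Pbx2 and Pou6f1 in the wild type, Lhx2, Meis1, Pou3f4 and Pou6f1 in the knockout). The median of the 18 genes was then -0.03 in both, below the shift of all genes. Between 24 h and 48 h of BDNF, 0 genes were called lower without rescaling and 2 higher in each genotype. These were Lhx2 and Pou6f1 in the wild type and Lhx2 and Meis1 in the knockout. Among all called genes the share called higher at 48 h was 56.6% in the wild type and 67.2% in the knockout, 97.9% and 98.8% without rescaling, 42.7% and 47.6% after quantile normalization and 39.9% and 41.5% with 75th percentile scaling. After scaling to the 75th percentile or quantile normalization 9 genes fell in the wild type and 8 in the knockout, and 0 rose in either. The ratio of the 3' to the 5' Gapdh control probe set, which depends on how intact the RNA was and how it was amplified, was 2.40 to 2.62 in wild-type and 2.17 to 2.68 in knockout dishes at 48 h against 2.72 to 2.94 and 2.57 to 2.84 in basal dishes. With this ratio as a covariate 3 wild-type falls were called (Lhx8, Lhx9 and Meis2) and 2 in the knockout (Lhx8 and Meis2). The wild-type ratios at 48 h did not overlap the basal ones, and the knockout ratios overlapped only in part. The ratio and the 48 h of BDNF can therefore hardly be told apart. What part the ratio had in the other falls was not tested. Without WT basal replicate 1 the wild-type count of 10 calls became 6.

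Other lists also moved at 48 h. Of the 17 forebrain factors tested, 8 fell in the wild type, such as Isl1 (-0.51 ± 0.10, adjusted p = 0.000316) and Zeb2 (-0.51), and 2 fell in the knockout, and 0 rose in either. Of the 11 progenitor genes 5 and 4 fell and 0 rose, and of 9 neuron genes 5 and 3 rose and 2 and 1 fell. The neurofilament genes Nefm and Nefl rose by 1.41 and 1.15 in the wild type. The median change of the 9 neuron genes was 0.42 in the wild type and 0.01 in the knockout. Erythroid genes fell in 3 of 3 tested in both genotypes (medians -0.99 and -1), with Hba-a1 and Alas2 at the floor. Their sums were 50.9 to 92.5 in basal and 26.4 to 47.9 in 48 h wild-type dishes, and 48.6 to 86.3 and 21 to 52.9 in the knockout. Mesenchymal sums at 48 h were 82 to 97.3 in the wild type (1 of 7 genes rose, 4 fell) and 174 to 199 in the knockout (0 rose, 2 fell), below the basal sums of the same genotype. Of the 3 vascular genes 1, the smooth muscle actin gene Acta2, fell in each genotype (-0.71 ± 0.07, adjusted p = 1.77e-09 in the wild type) and 0 rose. Vascular sums were 29.8 to 37 at 48 h in the wild type and 44.6 to 54.7 in the knockout, also below the basal sums of the same genotype. Of the EYA and DACH partners tested, Dach2 rose in the wild type (0.66 ± 0.08, adjusted p = 6.12e-08) and in the knockout (0.67 ± 0.08, adjusted p = 6.73e-08), and Eya3 fell in the wild type (-0.24 ± 0.09, adjusted p = 0.0422). Some lists had already moved at 24 h, in dishes lysed on the same day as the basal ones. Progenitor genes gave 0 higher and 4 lower there in the wild type and 0 and 6 in the knockout. LIM partners gave 0 higher and 3 lower in each genotype. Neuron genes gave 3 and 1 in the wild type and 2 and 1 in the knockout. Forebrain factors gave 0 and 3 in the wild type and 0 either way in the knockout. No erythroid gene passed at 24 h. Whether the makeup of the cultures plays a part in the 48 h falls was not tested.

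The last question was whether the response to BDNF differed between genotypes. None of the 18 genes passed at 24 h, where 0.0941% of all genes tested did in either direction, or at 48 h, where 0.134% did. An unadjusted p under 0.05 was found for 3 genes at 24 h, Meis1 (-0.39 ± 0.16, adjusted p = 0.676), Pbx3 (0.25 ± 0.12, adjusted p = 0.808) and Six2 (-0.41 ± 0.18, adjusted p = 0.742), and for 0 at 48 h. The SEs of the differences of response, 0.10 to 0.27, mean that differences of response of the size of the BDNF falls themselves could have been missed, so falls called in 1 genotype and not in the other are not shown to differ.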

How the data were processed

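Affymetrix Mouse Genome 430A 2.0 arrays measured amplified RNA of 30 dishes, 5 in each of 6 groups. The deposited values are linear intensities summarised with MAS5 per the submitters' processing notes, whose version is not given in the sources used here, and the labels' protocols state a two-cycle amplification. Array medians were 81.9 to 138, and correlations between arrays 0.9701 to 0.9921. The number of arrays limits the precision.

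From the deposited intensities, each array was divided by its median, floored at 0.1 and set on a log2 scale. Of 22690 probe sets, 20393 had 1 symbol in the platform annotation, 691 several and 1606 none; the brightest probe set with 1 symbol stood for a gene, and the upper 60% of genes by mean (7436 of 12394) were tested. One limma fit (limma 3.58.1, R 4.3.3, eBayes with an intensity trend) over all 30 arrays gave 11 contrasts, two-sided, with Benjamini-Hochberg adjustment over all genes of a contrast and a threshold of 0.05; ± is the SE of the fit. The method was tested on simulated data with independent dishes and no difference between pools, so that test does not bear on genotype against pool. The members and gene lists were chosen with earlier results of these data known. Named were all members past the threshold, all members below the limit, up to 4 genes of a list with the largest change, and Xbp1. Alternatives were quantile and 75th percentile scaling, no rescaling, a floor of 0.05, no filter, the upper 40%, the mean of probe sets, a replicate block, no trend, a Gapdh 3' to 5' covariate, a term for arrays whose labels word the protocol differently, subsets of arrays and each array left out.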

Additional observations from a re-analysis of the deposited data

Results flagged for a closer look

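In 8 of the 108 gene and group combinations checked (18 tested genes in 6 groups of 5 dishes), 1 dish stood farther from the rest than the critical value of Dixon's test, a gap of 0.71 of the whole range. Chance gives such a dish in about 1 in 20 groups. Irx3 read -1.44 in WT 24 h replicate 5 against -0.42 in the nearest dish. Lhx8 read 2.10 in KO basal replicate 5 (nearest 1.88) and 1.68 in KO 48 h replicate 3 (nearest 1.60). For Pou3f1 the dishes were KO basal replicate 5 at 1.72 (nearest 1.46) and KO 24 h replicate 1 at 1.76 (nearest 1.34). Pou3f2 read -0.38 in WT 24 h replicate 3 (nearest -0.10). In KO basal replicate 3, Pou6f1 read 2.30 (nearest 1.82) and Six3 1.05 (nearest 0.72).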

How the results depend on the processing

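Of the 32 genotype calls, 27 kept their direction and stayed past the threshold under every alternative in which the gene was tested, and none reversed; the other 5 were Lhx8 and Pou6f1 at 48 h, Pou3f1 in basal dishes, Six3 at 24 h and Pbx3 at 48 h. Of the 24 BDNF calls none was kept under every alternative and none reversed. Over all alternatives 1068 of 1226 values stayed past the threshold. Counts of the 18 genes that moved by over 1.5 times were as follows. Between 24 h and 48 h in the knockout (2), the count was 4 with quantile normalization, 75th percentile scaling or no filter, 1 with the upper 40% of genes, and 0 with the Gapdh covariate, with the label wording term or with 48 h replicates 1 and 2 alone. At 24 h in the wild type (1) it was 2 with quantile normalization, 75th percentile scaling or no filter, and 0 without rescaling, with the upper 40% or with the mean of probe sets. Between 24 h and 48 h in the wild type (5) it was 2 with the upper 40% or with the Gapdh covariate. With 48 h replicates 1 and 2 alone it was also 2. Without rescaling it was 2 as well, but these were rises (Lhx2 and Pou6f1) and 0 genes fell. The count was 3 with the mean of probe sets or only the arrays compared, and 11 with no filter. At 48 h in the wild type (10) it was 4 without rescaling or with the upper 40%, 3 with the Gapdh covariate and 5 with 48 h replicates 1 and 2. At 48 h in the knockout (6) it was 2 with the upper 40% or the Gapdh covariate and 3 with the mean of probe sets or 48 h replicates 1 and 2. The genotype counts were 3, 3 and 5 with the upper 40%, which tests only 5 of the 18 genes, and 17 at 24 h with no filter. Leaving out each array gave 1 to 2 at 24 h in the wild type, 6 to 10 at 48 h in the wild type and 0 to 2 between 24 h and 48 h in the knockout, where every array but KO 24 h replicates 3 and 5 lowered the count of 2 to 0 or 1.

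Deviations of dishes with the same replicate number correlated between -0.17 and 0.28, and in no pair of groups were all 5 over 0.1. Between genotypes the mean correlation for the same number was 0.07, 0.11 and 0.14 in basal, 24 h and 48 h dishes. For other numbers it was -0.02, -0.03 and -0.03. Some other pairs of groups went the other way, such as WT 24 h and KO basal (-0.05 against 0.01). Whether dishes with the same number shared any handling was not tested. A fit with the replicate number as a block kept all 32 genotype and all 24 BDNF calls, with 10 at 48 h in the wild type.

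Counts over all genes tested also moved by over 1.5 times. Between 24 h and 48 h in the knockout 732 became 55 with the Gapdh covariate, 57 with the label wording term, 181 with 48 h replicates 1 and 2 alone and 2008 without rescaling, and in the wild type 1034 became 294, 136 and 4587 with the covariate, with those replicates and without rescaling. At 48 h in the knockout 2147 became 992, 1379, 1193 and 3732 with the covariate, the wording term, those replicates and no rescaling, and in the wild type 2693 became 1470, 1023 and 4379 with the covariate, those replicates and no rescaling. Without rescaling the 24 h counts of 1074 (wild type) and 856 (knockout) became 275 and 201, and the genotype counts of 2073, 1949 and 1791 became 842, 877 and 882, the last being 911 with 48 h replicates 1 and 2 alone. The counts of differing responses, 7 and 10, lay between 0 and 13 under the alternatives. Signals near the floor limit what can be said of the 65 untested genes.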
